A study of Homo sapiens with 6 samples.

Results

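The genes described here encode 10 parts of the actin cytoskeleton: smooth muscle actin (ACTA2), the sarcomeric adaptor myopalladin (MYPN), the PDZ-LIM adaptors PDLIM1 and PDLIM7, the actin-binding proteins transgelin (TAGLN), calponin (CNN1) and alpha-actinin (ACTN1), the myosin light chain MYL9 and the tropomyosins TPM1 and TPM2. They were taken by symbol from 18417 genes measured on Affymetrix whole-transcript arrays, and each had 1 probe set. ACTA2 was chosen by its difference after NRF3 siRNA in HCT116 on these same arrays, and MYPN and PDLIM1 by theirs in H1299 with NRF3. Those differences are therefore descriptions.

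The study had 6 groups of cultured cells with 1 array each. HCT116, a human colon cancer line, received NRF3 siRNA or control siRNA, and so did HCT116-p53KO, a p53-deficient line derived from it, with RNA taken 48 h after transfection. H1299, a human line from non-small cell lung carcinoma, stably expressed NRF3 or GFP from plasmids after G-418 selection. The labels do not say whether the stable lines were single clones or pools, or which siRNA sequences were used. NRF3 is a transcription factor of the cap'n'collar family encoded by NFE2L3. With 1 array per group no difference had a replicate check, none was tested, and precision is limited by that number. Levels are RMA log2 intensities, in which a difference of 1 is 2-fold.

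Actin filaments are built from actin subunits and are bundled, anchored and contracted by the proteins named above. Alpha-actinin crosslinks the filaments, tropomyosin lies along them, and non-muscle and smooth muscle myosin, switched on through its regulatory light chain, pulls on them. PDZ-LIM proteins attach signalling and structural partners to alpha-actinin. In muscle, myopalladin sits at the Z-disc and I-band, where it binds alpha-actinin, nebulin and the ankyrin repeat protein encoded by ANKRD1. ACTA2, TAGLN, CNN1 and MYL9 are classical smooth muscle and myofibroblast genes, and many genes of this group are driven by the factor SRF with coactivators that sense free actin.

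The arrays fell into a set from HCT116 and HCT116-p53KO and a set from H1299. The median gene was at 7.43 to 7.46 on the 4 arrays of the HCT116 family, while in H1299 it was at 6.50 to 6.56. A level of 6 or more was reached by 72.6% to 75.2% of genes on the HCT116-family arrays. On the H1299 arrays 58.7% to 59.8% of genes reached it. Levels and counts at 6 or more are therefore given within each set, and no difference between the sets is read from them. NFE2L3 was 5.11-fold lower with NRF3 siRNA than with control siRNA in HCT116, 2.94-fold lower in HCT116-p53KO, and 4.06-fold higher with NRF3 than with GFP in H1299. All 7 general epithelial markers on the arrays were at 6 or more on each HCT116-family array. Of 7 colon markers VIL1, CDH17 and KRT20 lay under 6 there, and GPA33 reached 6 only with NRF3 siRNA in HCT116 (6.05). On the H1299 arrays KRT8 and KRT18 were the only general epithelial markers at 6 or more. Of the colon markers CDX1 and CDX2 were at 6 or more on both H1299 arrays, and LGALS4 with GFP (6.03).

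The 250 bases before the start sites of 4 genes are shown because these genes carried the largest differences, with ANKRD1 added as the partner of MYPN. Sequences are from RefSeq on GRCh38.p14, 5′ to 3′ on the gene's own strand. The windows are chr10:68109238-68109487 (plus strand) for MYPN, chr10:90921088-90921337 (minus) for ANKRD1, chr10:95291004-95291253 (minus) for PDLIM1 and chr10:88952774-88953023 (minus) for the downstream start of ACTA2. Capitals mark GGAATG on either strand, the core of the motif of TEAD factors, and CArG boxes, the SRF motif, with at most 1 G or C inside.
MYPN: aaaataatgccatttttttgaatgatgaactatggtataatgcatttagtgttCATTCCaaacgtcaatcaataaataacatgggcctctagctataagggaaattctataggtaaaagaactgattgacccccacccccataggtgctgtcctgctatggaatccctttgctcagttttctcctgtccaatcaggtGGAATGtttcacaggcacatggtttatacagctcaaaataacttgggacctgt
ANKRD1: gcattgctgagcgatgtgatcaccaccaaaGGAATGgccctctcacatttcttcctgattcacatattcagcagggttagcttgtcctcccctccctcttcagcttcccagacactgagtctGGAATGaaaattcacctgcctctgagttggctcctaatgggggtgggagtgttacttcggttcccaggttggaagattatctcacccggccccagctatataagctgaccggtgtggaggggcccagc
PDLIM1: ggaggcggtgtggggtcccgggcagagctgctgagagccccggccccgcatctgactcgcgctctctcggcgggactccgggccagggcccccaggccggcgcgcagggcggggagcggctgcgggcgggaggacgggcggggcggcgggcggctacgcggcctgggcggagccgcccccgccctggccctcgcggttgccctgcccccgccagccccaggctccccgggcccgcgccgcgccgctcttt
ACTA2: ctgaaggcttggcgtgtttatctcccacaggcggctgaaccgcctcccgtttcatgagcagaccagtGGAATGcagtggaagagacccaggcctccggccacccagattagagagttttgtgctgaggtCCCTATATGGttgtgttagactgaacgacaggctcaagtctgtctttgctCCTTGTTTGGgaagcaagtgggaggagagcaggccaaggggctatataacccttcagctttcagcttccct

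MYPN held GGAATG at 197 and 53 bases before its start, and ANKRD1 at 220 and 128 bases. ACTA2 held it at 183 bases, beside CArG boxes of the relaxed kind at 121 and 71 bases, and PDLIM1 held neither motif. RefSeq windows were read for 8 of the 10 genes, all but TAGLN and MYL9, 13 windows in all. GGAATG on either strand was found in 3 of these 13, against 11.9% of all 35116 windows of this length. The strict CArG box was found in 1 of 13, at ACTN1, against 1.16% of all windows, and the relaxed one in 2 against 7.04%. The antioxidant response core TGACNNNGC, the motif of cap'n'collar factors with small MAF partners, was found on either strand in 2 of 13, at ACTN1 and CNN1, against 10.9%. No match of different motifs overlapped another, apart from the strict CArG box, which the relaxed one includes. These matches describe the letters of the windows and no binding was measured.

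**Figure D1:**
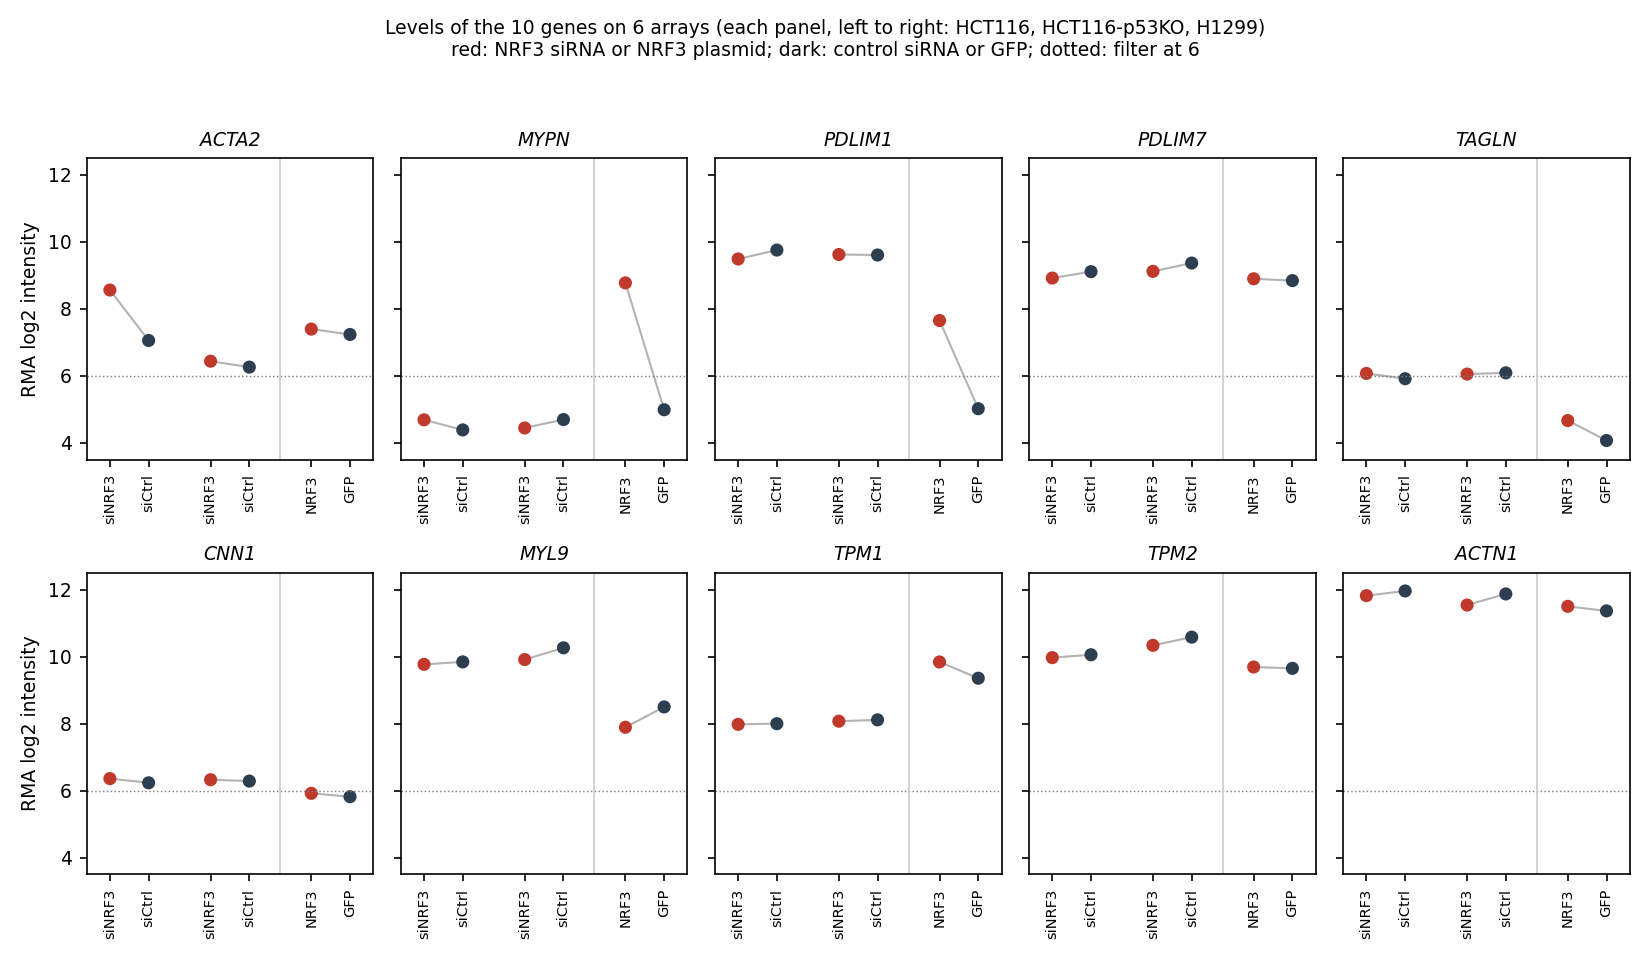
RMA log2 intensity of each of the 10 genes on the 6 arrays, 1 point per array, with NRF3 siRNA or NRF3 (red) left of control siRNA or GFP (dark), and lines joining the arrays of 1 line. ACTA2 stands apart on the HCT116 NRF3 siRNA array at 8.56, and MYPN and PDLIM1 on the H1299 NRF3 array at 8.77 and 7.65. The vertical line parts the sets of arrays whose distributions differ, and the dotted line is the filter at 6.

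Smooth muscle actin was higher after NRF3 siRNA in HCT116, with a far smaller difference in HCT116-p53KO. ACTA2 was at 8.56 with NRF3 siRNA and 7.06 with control siRNA in HCT116, or 2.84-fold higher. In HCT116-p53KO it was at 6.44 with NRF3 siRNA and 6.26 with control siRNA, a difference of 0.18. Both levels lay close to the filter at 6, at percentiles 34.3 and 30.8 of the genes on their arrays. The size of ACTA2's siRNA difference in HCT116-p53KO, and with it the contrast between the lines, is therefore uncertain. In H1299 ACTA2 was at 7.39 with NRF3 and 7.23 with GFP, a difference of 0.16. The HCT116 array with NRF3 siRNA was thus the highest of the 4 HCT116-family arrays, and the HCT116 control array lay above both HCT116-p53KO arrays. Of the 14034 genes that reached 6 on either HCT116 array, ACTA2 was the second highest difference, and 0.128% of genes differed as much in size. In HCT116-p53KO 48.5% of genes differed as much as ACTA2 did, and in H1299 57.6% did. The siRNA difference of HCT116 less that of HCT116-p53KO was 1.33 for ACTA2, between -0.28 and 0.28 for the other 8 genes that passed the filter in both lines, and 0.55 for MYPN, which lay under 6 on all 4 arrays.

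Between the lines ACTA2 was lower in HCT116-p53KO than in HCT116, by -0.79 on the control siRNA arrays and by -2.12 on the NRF3 siRNA arrays, or 1.74-fold and 4.36-fold. These line comparisons use the same arrays as the siRNA comparisons and are not separate evidence. ACTA2 lies on chromosome 10 on the minus strand and overlaps FAS, the gene of a death receptor and a known p53 target, on the plus strand. RefSeq gives ACTA2 an upstream start at chr10:88991337 (GRCh38.p14), 94 bases from a FAS start at chr10:88991431 on the other strand, and the 300-base windows around these starts share 193 bases. Which strand and exons each probe set reads was not given in the sources used here, so signals of overlapping genes cannot be taken as separate.

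FAS was at 8.41 with NRF3 siRNA and 8.10 with control siRNA in HCT116, and at 6.60 and 6.26 in HCT116-p53KO. Its siRNA differences were 0.31 and 0.34, so the size of the ACTA2 difference in HCT116 was not seen in FAS, while its line differences of -1.84 and -1.81 were of the same sign as those of ACTA2. The antisense transcript ACTA2-AS1 was at 7.01 with NRF3 siRNA and 6.61 with control siRNA in HCT116, a difference of 0.40, and differed by 0.09 in HCT116-p53KO. STAMBPL1, a deubiquitinase gene next to ACTA2, differed by -0.02 and 0.01 after siRNA and by -1.08 and -1.04 between the lines. On the other side CH25H, the cholesterol 25-hydroxylase gene, differed by 0.64 after siRNA in HCT116 and lay under 6 on the control array. Over the 40 measured genes nearest to ACTA2 in chromosome order the median siRNA difference was -0.10 in HCT116, against 0.01 for all genes. Of the 40, 1 was 1.5-fold higher and 7 were 1.5-fold lower, where 2.71% and 6.02% of all genes were.

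**Figure D2:**
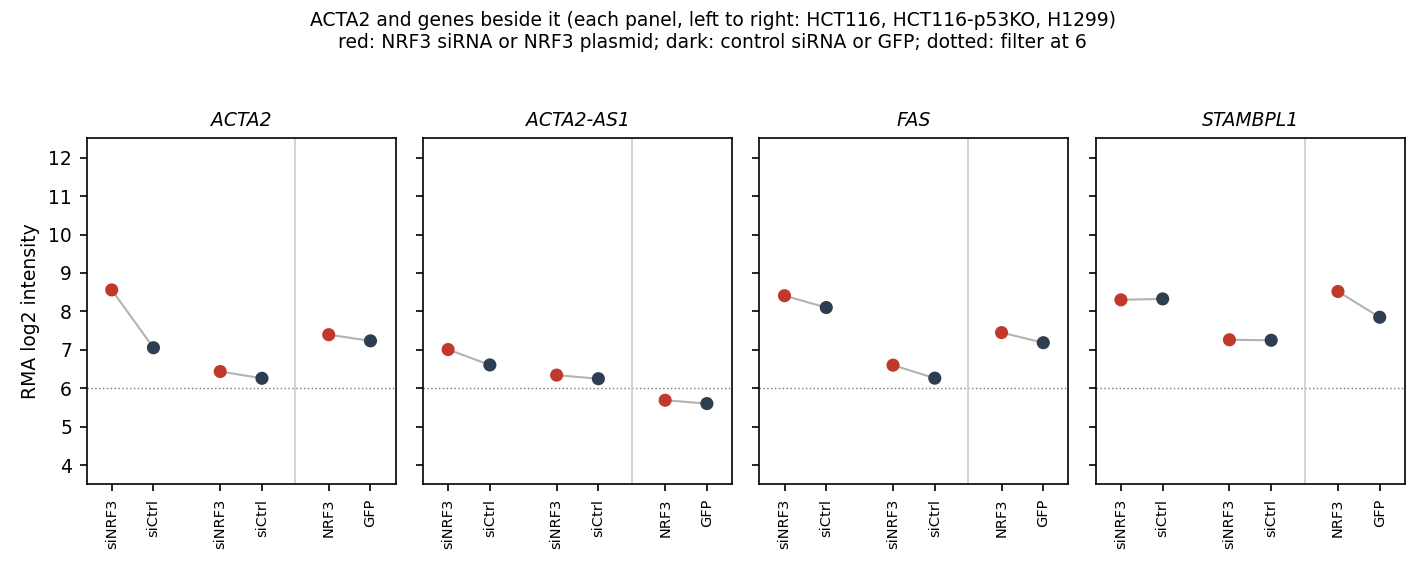
RMA log2 intensity of ACTA2, ACTA2-AS1, FAS and STAMBPL1 on the 6 arrays, with NRF3 siRNA or NRF3 (red) left of control siRNA or GFP (dark) and the filter at 6 dotted. ACTA2 was 2.84-fold higher with NRF3 siRNA in HCT116, where FAS differed by 0.31, while both were lower on the HCT116-p53KO arrays.

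The other 9 genes differed little after siRNA. In HCT116, 9 of the 10 passed the filter of 6 on at least 1 array, and ACTA2 alone was 1.5-fold higher, where 2.71% of all genes were. None was 1.5-fold lower, against 6.02% of all genes. The remaining 8 lay between -0.27 (PDLIM1) and 0.16 (TAGLN), and the median of the 9 was -0.07 against 0.01 for all genes, or -0.01 with loess-corrected differences. In HCT116-p53KO 9 passed, and none was 1.5-fold higher or lower, against 3.63% and 2.38% of all genes. There the lowest were MYL9 (-0.35) and ACTN1 (-0.33), ACTA2 was the highest at 0.18, and the median was -0.04 against 0.00 for all genes, or -0.25 with the filter at 7.

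The contractile light chain and the tropomyosins differed by less than 1.5-fold in each pair of HCT116-family arrays compared. MYL9 was at 9.77 with NRF3 siRNA and 9.84 with control siRNA in HCT116, and at 9.91 and 10.26 in HCT116-p53KO. TPM2 was at 9.97 with NRF3 siRNA and 10.05 with control siRNA in HCT116, and at 10.33 and 10.58 in HCT116-p53KO. Both were highest on the HCT116-p53KO control array, and TPM2 was higher in HCT116-p53KO than in HCT116 by 0.53 with control siRNA and 0.37 with NRF3 siRNA. TPM1 kept within 7.98 to 8.11 on these 4 arrays, a spread of 0.13.

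ACTN1 was at 11.82 with NRF3 siRNA and 11.96 with control siRNA in HCT116, and at 11.54 and 11.87 in HCT116-p53KO. PDLIM7 was at 8.92 and 9.11 in HCT116 and at 9.12 and 9.37 in HCT116-p53KO, again with NRF3 siRNA given before control siRNA. Both genes were lower with NRF3 siRNA than with control siRNA in each line, by less than 1.5-fold. TAGLN (5.91 to 6.09) and CNN1 (6.23 to 6.36) lay close to the filter on all 4 arrays, which limits the differences that could be seen. TAGLN differed by 0.16 in HCT116 and CNN1 by 0.13, so the size of the ACTA2 difference was not seen in these smooth muscle genes.

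Between the lines ACTA2 was the only one of 9 genes past 1.5-fold. It was lower in HCT116-p53KO on the control siRNA arrays, where 3.45% of all genes were 1.5-fold lower, and on the NRF3 siRNA arrays, where 4.75% were. None was 1.5-fold higher on either, against 0.868% and 5.6% of all genes. The next in size were TPM2 on the control arrays, at 0.53, and on the NRF3 siRNA arrays, at 0.37, both short of 1.5-fold.

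**Figure D3:**
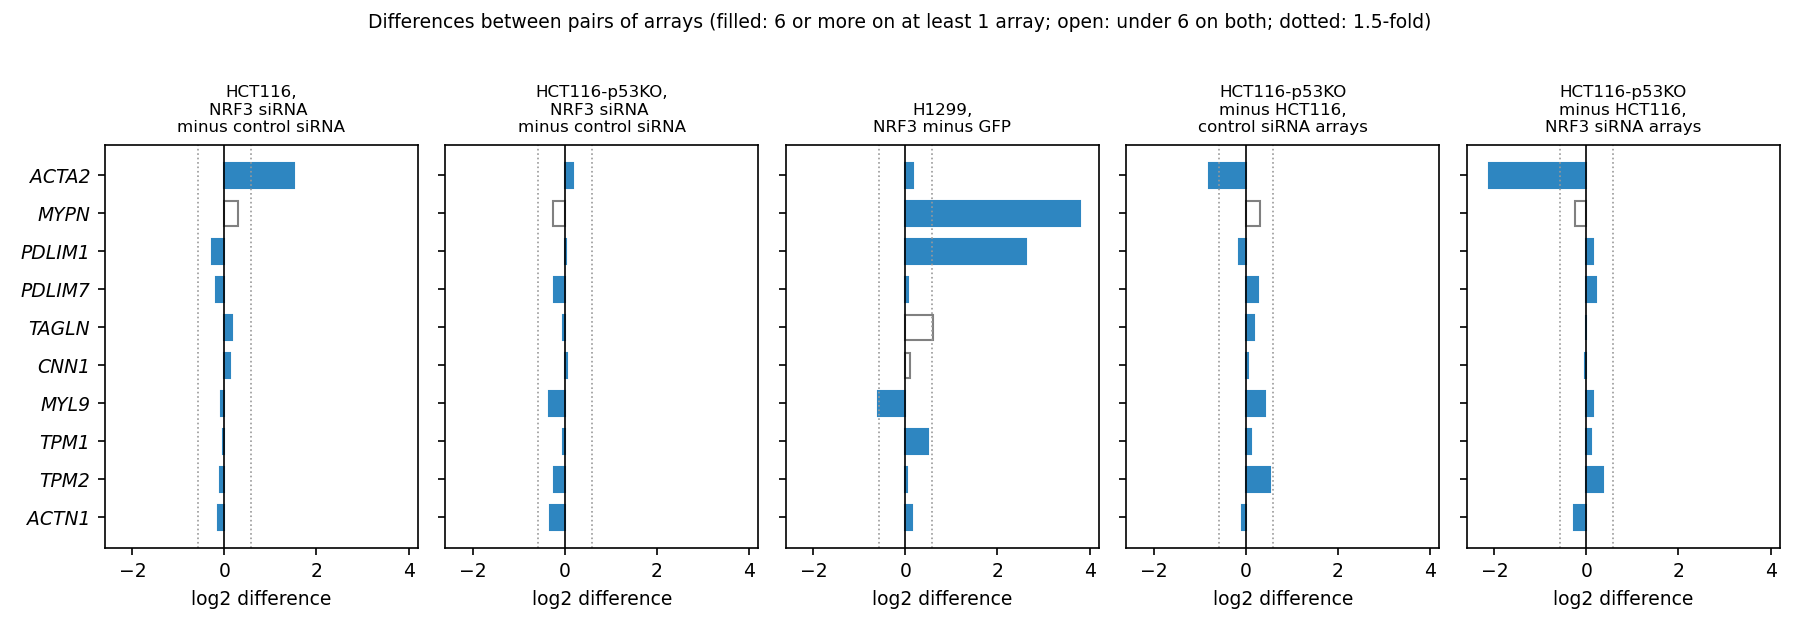
Difference of RMA log2 intensity for each of the 10 genes in 5 pairs of arrays, named above each panel in the order of subtraction. Filled bars passed the filter of 6 on at least 1 array, open bars lay under 6 on both, and dotted lines mark 1.5-fold. ACTA2 is the only gene past 1.5-fold among filled bars in the HCT116 panels, and MYPN (3.79), PDLIM1 (2.63) and MYL9 (-0.61) are those in H1299.

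In H1299 myopalladin and PDLIM1 were far higher with NRF3 than with GFP. MYPN was at 8.77 with NRF3 and 4.99 with GFP, a difference of 3.79 or 13.8-fold, and was under 6 on all 4 HCT116-family arrays (4.39 to 4.70). PDLIM1 was at 7.65 with NRF3 and 5.02 with GFP, a difference of 2.63 or 6.19-fold. Since the GFP array lay under 6 for both, low on the scale, the sizes of these folds are uncertain. They were the second and the fifth highest differences among 11304 genes. PDLIM1 was at 9.49 to 9.75 on the HCT116-family arrays, at percentile 84.4 to 86.4 of the genes on its array. In H1299 it stood at percentile 69.8 with NRF3 and 22.9 with GFP, and MYPN at 85.7 and 22.4.

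MYL9 went the other way in H1299, at 7.89 with NRF3 and 8.50 with GFP, a difference of -0.61 or 1.52-fold lower, just past the 1.5-fold limit. TPM1 was at 9.84 with NRF3 and 9.35 with GFP, a difference of 0.48 that fell just short of it. Thus 2 of the 8 genes that passed the filter were 1.5-fold higher, against 4.82% of all genes, and 1 was 1.5-fold lower, against 4.2%. The 2 higher ones are those picked for these values, so nothing is read from that count. ACTN1 (0.14), PDLIM7 (0.06), TPM2 (0.04) and ACTA2 (0.16) differed little, and the median of the 8 was 0.15 against 0.00 for all genes. TAGLN, at 4.67 with NRF3 and 4.07 with GFP, and CNN1, at 5.92 and 5.82, did not pass. The TAGLN difference, under 6 on both arrays, was 0.60 or 1.51-fold.

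MYPN, PDLIM1 and ACTA2 all lie on chromosome 10, a feature that had no part in choosing them, and the genes around them also differed between the H1299 arrays. Of 77 genes at least 2-fold higher with NRF3, 11 lay on chromosome 10, where 415 of the 11304 genes lie. Of these 11, 2 are MYPN and PDLIM1 themselves and 5 lay under 6 on the GFP array, so that they passed the filter through the array on which they were high, and nothing is read from the count. Chromosome 18 held 7 of the 77 among 165 genes and chromosome 13 held 5 among 196. Of 129 genes at least 2-fold lower, 5 lay on chromosome 10, and of the 206 genes 2-fold different either way, 16 did (7.77%). Of all genes measured there, 3.67% lay on chromosome 10. Between HCT116-p53KO and HCT116 the same share was 7.25% on the control siRNA arrays, against 3.78% of all genes. On the NRF3 siRNA arrays it was 6.37%, against 3.76%. In these 2 comparisons 1.5% and 1.91% of all genes were 2-fold different. In H1299 0.681% of all genes were 2-fold higher, 1.14% 2-fold lower and 1.82% either. The largest chromosome 10 differences were ANKRD1 (4.35), MYPN, PDLIM1, the WNT antagonist gene DKK1 (2.43), the mTORC1 inhibitor gene DDIT4 (2.01), the MAP kinase phosphatase gene DUSP5 (1.73) and the pyrophosphatase gene PPA1 (1.30). RHOBTB1 (-1.51), KIAA1217 (-1.48) and PRTFDC1 (-1.43) were lower.

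The shift ran through long stretches of the chromosome. The median over all 415 genes of chromosome 10 was 0.22, second among 23 chromosomes after chromosome 13 at 0.33 and before chromosome 18 at 0.18, and 69.9% of its genes were above 0. With the 415 genes cut in chromosome order into 8 blocks of 51 or 52, the medians in order were 0.09, -0.33, 0.08, 0.38, 0.50, 0.33, 0.43 and 0.37. In the second block 7 of 52 genes were above 0, and in the fifth, which holds ACTA2 and PDLIM1, 46 of 52 were. In the siRNA comparisons the median of chromosome 10 was 0.02 in HCT116 and 0.01 in HCT116-p53KO. The 40 measured genes nearest to PDLIM1 had a median of 0.33 in H1299, with 34 above 0, those nearest to MYPN 0.23, with 27 above 0, and those nearest to ACTA2 0.52, with 35 above 0. PDLIM1 (2.63) and MYPN (3.79), picked for these values, thus lay above the medians of their neighbours and ACTA2 (0.16) below that of its own, and ANKRD1 (4.35), among the neighbours of PDLIM1 and of ACTA2, had a larger difference than both of these.

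Next to MYPN, the ubiquitin ligase gene HERC4 differed by 0.54 and ATOH7, under 6 on both arrays, by 0.69. Next to PDLIM1, the proline synthesis gene ALDH18A1 differed by 0.80 and ACSM6, under 6 on both arrays, by -0.04. The part of this shift of the surrounding genes in the values of MYPN and PDLIM1 was not tested.

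**Figure D4:**
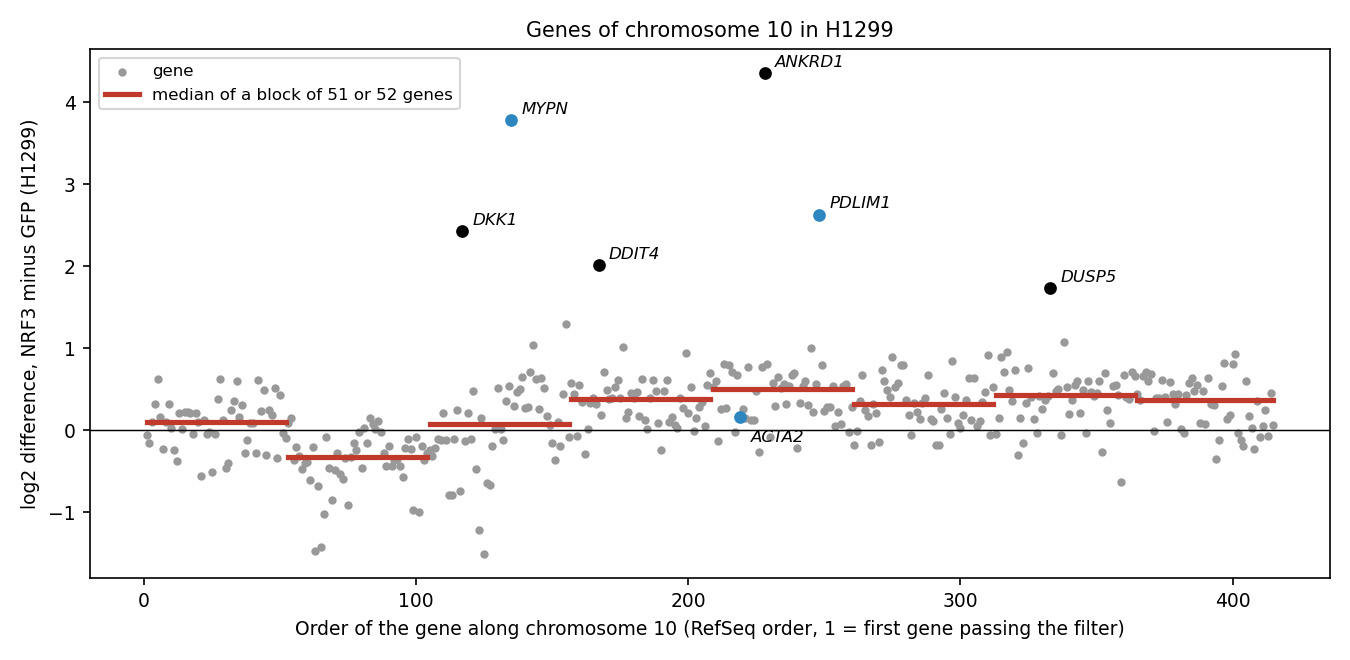
Difference of RMA log2 intensity, NRF3 minus GFP in H1299, for the 415 genes of chromosome 10 that passed the filter, in their order along the chromosome. Red bars are medians of 8 consecutive blocks, which lie at -0.33 in the second and between 0.33 and 0.50 from the fourth on. Blue points are ACTA2, MYPN and PDLIM1, and black points other named genes.

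Genes nearest in pattern to the leading ones were found by the Euclidean distance over the 3 NRF3 differences. These include the differences for which ACTA2, MYPN and PDLIM1 were chosen. The nearest genes follow in part from that choice, and nothing is read from their nearness. ACTA2 was nearest to SKAP1, an adaptor of T-cell signalling (differences of 1.35, 0.32 and -0.12 in HCT116, its p53KO line and H1299, distance 0.345), the long noncoding RNA LCAL1 (0.425) and the prokineticin receptor gene PROKR2 (0.536) among 14033 genes, each under 6 on the HCT116 control array. MYPN was nearest to ANKRD1 (0.34, -0.06 and 4.35), then to the annexin gene ANXA3 (0.938) and the pseudogene ZNF542P (0.951), among 11303 genes. PDLIM1 was nearest to LINC00417 (0.300), ZNF542P (0.474) and ANXA3 (0.729), of which LINC00417 and ANXA3 lay under 6 on the GFP array as PDLIM1 did. ANKRD1 was at 8.91 with NRF3 and 4.56 with GFP in H1299 and at 4.90 to 5.24 on the HCT116-family arrays. MYPN also lay under 6 on the HCT116-family arrays, so the HCT116 differences of this pair come from low signal. In H1299 ANKRD1 and ANXA3 passed the filter only through the NRF3 array, on which they were high.

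Related genes outside the 10 showed few differences of the same kind. None of the other actins was 1.5-fold different in any NRF3 comparison. In these comparisons 2.71% to 4.82% of all genes were 1.5-fold higher and 2.38% to 6.02% lower. In HCT116 ACTA1, the skeletal muscle actin, differed by 0.14, ACTB by 0.05 and ACTG1 by -0.01, and ACTG2, the enteric smooth muscle actin, lay under 6 on both arrays. None of 4 other PDZ-LIM genes that passed in HCT116, of 5 in HCT116-p53KO or of 3 in H1299 was 1.5-fold different, with PDLIM5 at -0.36, -0.14 and -0.09. PDLIM5 was however lower in HCT116-p53KO than in HCT116, by -1.27 on the control arrays and by -1.06 on the NRF3 siRNA arrays. PALLD, the palladin gene and a close relative of MYPN, differed by -0.54, -0.31 and 0.19. Of 5 Z-disc genes that passed in H1299, ANKRD1 alone was 1.5-fold higher, against 4.82% of all genes. With GFP ANKRD1 lay at 4.56, so it passed the filter through the array on which it was high, and nothing is read from the count.

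Among other tropomyosin, actinin, calponin and transgelin genes in HCT116, 1 of 6 was 1.5-fold higher, TPM4 (0.67), and 2 were 1.5-fold lower, TAGLN2 (-0.75) and CNN2 (-0.59), where 2.71% of all genes were higher and 6.02% lower. In HCT116-p53KO none was, where 3.63% of all genes were higher and 2.38% lower. There TPM4 was at 0.40, TAGLN2 at -0.07, CNN2 at -0.27 and ACTN4 at -0.50. Of 11 myosin and myosin-control genes, 2 were 1.5-fold lower in HCT116, against 6.02% of all genes, and 1 in HCT116-p53KO, against 2.38%. These were ROCK2, a kinase that promotes myosin activity, at -1.15 and -0.76, and the light chain MYL12A at -0.64 in HCT116 and -0.56 in HCT116-p53KO. In H1299 1 of 9 was 1.5-fold higher, ROCK1 (0.83), against 4.82% of all genes.

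Of 15 genes of adhesions and filaments, LASP1, a LIM and SH3 actin-binding protein, and PXN, the focal adhesion scaffold paxillin, were lower in both knockdowns. Of all genes 6.02% were 1.5-fold lower in HCT116 and 2.38% in HCT116-p53KO. LASP1 was at 9.80 with NRF3 siRNA and 10.94 with control siRNA in HCT116, and at 9.19 and 10.43 in HCT116-p53KO. PXN was at 8.53 with NRF3 siRNA and 9.70 with control siRNA in HCT116, and at 8.45 and 9.67 in HCT116-p53KO. In H1299 both differed little, LASP1 by 0.20 and PXN by 0.04. CALD1, the filament-binding caldesmon, was 1.5-fold higher there at 0.84, where 4.82% of all genes were. CSRP2, a LIM protein of smooth muscle, was at 0.74 in HCT116, and LIMA1, a filament-stabilising LIM protein, at -0.74 in HCT116-p53KO. The median of these 15 was -0.05 in HCT116, against 0.01 for all genes, and -0.13 in HCT116-p53KO, against 0.00. In H1299 it was 0.20, with 12 of 15 above 0, against 0.00. SRF differed by 0.32, 0.11 and 0.18 and its coactivator gene MRTFB by -0.35, -0.19 and -0.19.

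**Figure D5:**
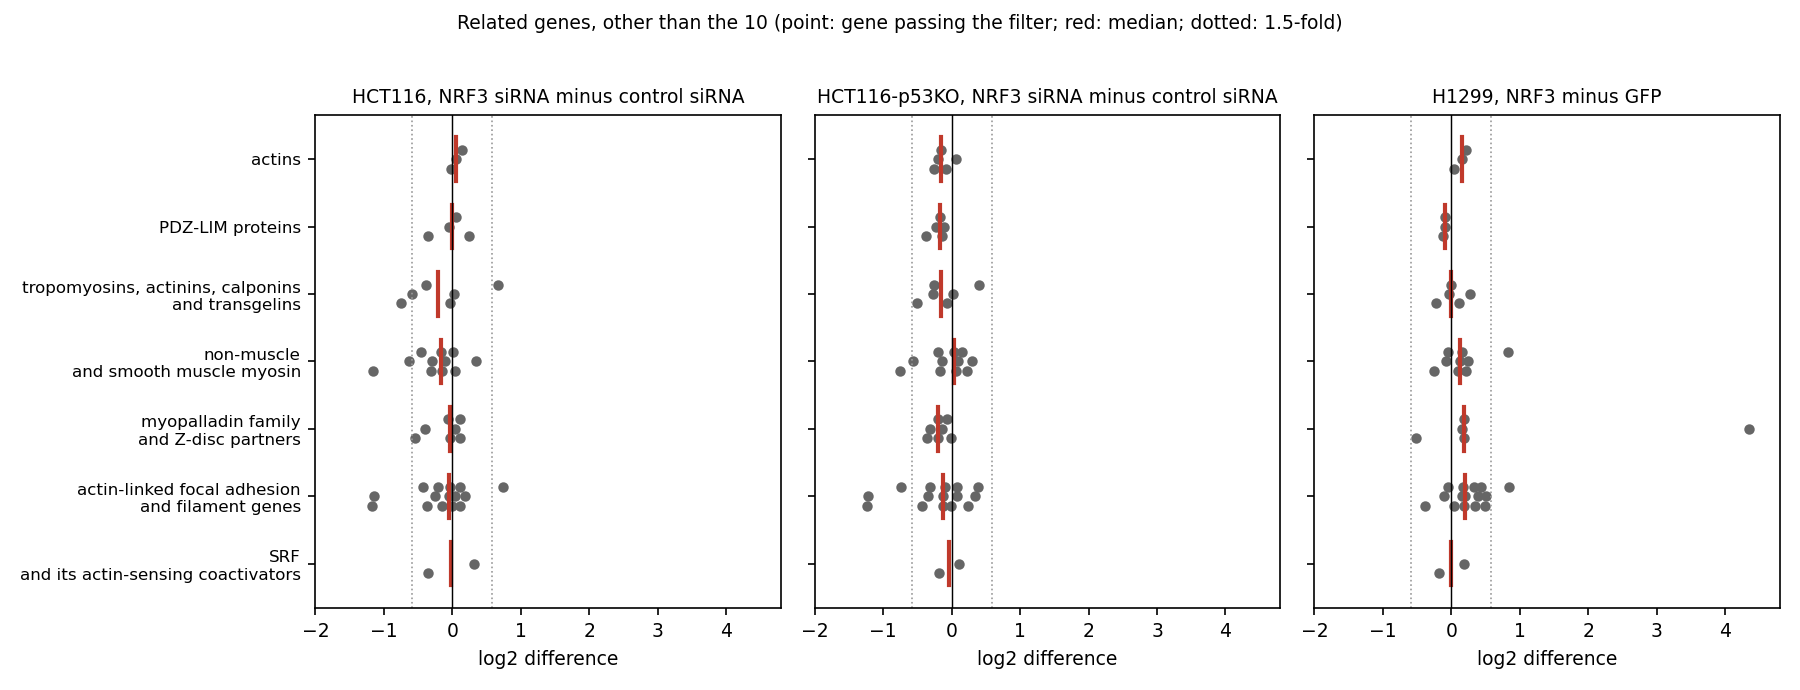
Difference of RMA log2 intensity for related genes outside the 10, by group, in the 3 NRF3 comparisons. Each point is a gene that passed the filter, the red bar is the group's median and dotted lines mark 1.5-fold. In the focal adhesion and filament group LASP1 and PXN are the points between -1.24 and -1.14 in both siRNA panels. In the myosin group ROCK2 is at -1.15 in HCT116, and ANKRD1 is the point at 4.35 in H1299.

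Markers of muscle were not higher with NRF3 as MYPN was in H1299. Of 13 smooth and striated muscle markers on the arrays 5 were at 6 or more with NRF3 and 5 with GFP, the same genes on both: DES, SMTN, ACTA1, TNNT1 and MYOG. None was 1.5-fold higher, against 4.82% of all genes, and the log2 levels of the 13 summed to 72.4 with NRF3 and 72.9 with GFP. TNNT1, the slow skeletal troponin T, was lower, at 6.83 with NRF3 and 8.13 with GFP, where 4.2% of all genes were 1.5-fold lower. In HCT116, where ACTA2 was higher, 7 of these markers passed and none was 1.5-fold different, against 2.71% of all genes higher and 6.02% lower. Of 8 fibroblast markers 5 passed there, and all 5 were above 0 but under 1.5-fold, led by PDGFRB (0.32). Of all genes 51.6% were above 0. The median of the 5 was 0.25, against 0.01 for all genes. THY1 passed only through the NRF3 siRNA array, at 6.15 against 5.90 with control siRNA. The log2 levels of the 8 summed to 46.6 with NRF3 siRNA and 45.1 with control siRNA, including DCN, LUM and FAP, under 6 on both. Of these LUM was lower with NRF3 siRNA, and DCN and FAP were higher. Of the 7 epithelial markers, all were below 0 in HCT116, where 48.4% of all genes were, with a median of -0.51. ELF3 (-1.12) and CDH1 (-0.71), which encodes E-cadherin, were 1.5-fold lower, where 6.02% of all genes were. The 4 colon markers that passed there were above 0, with a median of 0.22, led by LGALS4 (0.32). Of these GPA33 passed only through the NRF3 siRNA array, at 6.05 against 5.84 with control siRNA. Of the colon markers under 6 on both arrays, VIL1 and KRT20 were lower with NRF3 siRNA and CDH17 was higher. In HCT116 loess correction moved TAGLN, close to 6, from 0.16 to 0.05, and MYL9, at 9.77 with NRF3 siRNA, from -0.07 to -0.005. The marker differences were not loess-corrected, and the part of signal level in their signs was not tested. In HCT116-p53KO 6 of 7 epithelial markers were below 0, with a median of -0.48 against 0.00 for all genes. ELF3 (-0.87), CLDN4 (-0.78) and KRT8 (-0.73) were 1.5-fold lower, where 2.38% of all genes were. There 1 of 3 colon markers was above 0. The part of these markers in the ACTA2 difference was not tested.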

How the data were processed

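The deposited values are RMA log2 intensities of 33297 probe sets on 6 arrays, made by the authors with RMA in Affymetrix Expression Console from 100 ng of total RNA, per the submitters' processing notes and the labels' protocols. The sources used here do not say which arrays were normalized together. Probe sets were named through the platform annotation: 19460 had 1 symbol and were used, 1754 had several and 12083 were not listed. For genes with several probe sets the one with the highest mean over the 6 arrays was kept. RefSeq of GRCh38.p14, matched by Entrez number for 18386 of 18417 genes, gave chromosomes, gene order and promoter windows.

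Differences of log2 values were taken for genes that reached 6 on either array of the pair and counted at 1.5-fold (0.58) and 2-fold, beside the share of all genes past the same fold. No test was run: each group had 1 array. The calculations were tested on simulated data with Python 3.11.15, pandas 2.3.3 and statsmodels 0.14.6.

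The 10 genes and the lists of related genes were chosen with earlier results of these data known. Named genes were the 10, NFE2L3, up to 4 of each list with the largest differences, adjacent genes of ACTA2, MYPN and PDLIM1, up to 10 chromosome 10 genes with the largest H1299 differences, and the 3 genes nearest in pattern. CSRP2, the marker genes named by their level, the chromosome blocks, the windows of 40 genes and the motifs were chosen after values were seen.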

Additional observations from a re-analysis of the deposited data

Results flagged for a closer look

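PDLIM1 and TAGLN differed in opposite directions after NRF3 siRNA in the 2 HCT116 lines. PDLIM1 was at -0.27 in HCT116 and 0.0155 in HCT116-p53KO, and TAGLN at 0.16 in HCT116 and -0.0368 in HCT116-p53KO. The difference between the lines was not tested, and all 4 values were smaller than 1.5-fold. With loess-corrected differences the signs were the same in both lines: PDLIM1 was at -0.20 in HCT116 and -0.04 in HCT116-p53KO, and TAGLN at 0.05 and 0.01. After quantile normalization PDLIM1 was at -0.18 and -0.01 in these lines.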

How the results depend on the processing

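Each result was recomputed with no filter on low values, a filter at 7, quantile normalization repeated over the 6 arrays, loess-corrected differences (span 0.4) and averaged probe sets per gene, and counts also at a lower limit (0.32 on the log2 scale) and at 2-fold. All 206 recomputed differences of single genes that passed the filter at 6 stayed on their side of 1.5-fold and none reversed a value past it. Many of the 206 could not move. Each gene had 1 probe set, so averaging left its difference unchanged, and so did a change of filter. Only quantile normalization and loess correction could change the difference of a single gene. In H1299 the count of genes higher, 2 as first computed, became 3 with no filter, through TAGLN (0.60). It was also 3 at the lower limit, through TPM1 (0.48). The median of the 9 genes that passed the filter in HCT116-p53KO after siRNA, -0.04, became -0.14 over all 10 with no filter, -0.25 with a filter at 7 and -0.16 after quantile normalization. In HCT116 the median of -0.07 became -0.02 after quantile normalization and -0.01 with loess. At the lower limit 2 genes were lower after siRNA in HCT116-p53KO. At that limit 2 genes were higher in HCT116-p53KO than in HCT116 on the control arrays and 1 on the NRF3 siRNA arrays. At 2-fold 0 genes were lower in H1299, where MYL9 had been, and 0 were lower between the lines on the control arrays, where ACTA2 had been. Chromosome 10 held 6.03% to 8.33% of the genes 2-fold different either way in H1299, against 7.77% as first computed. No paired analysis was possible because each group had 1 array. Arrays with signal under 6 limit the sizes for MYPN, PDLIM1 and TAGLN, and levels close to 6 in HCT116-p53KO limit those for ACTA2.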

Other observations

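Some related genes differed between the HCT116 lines whichever siRNA was used. NEBL, which encodes the actin-binding protein nebulette, was higher in HCT116-p53KO than in HCT116, by 0.88 on the control siRNA arrays and by 1.07 on the NRF3 siRNA arrays. LIMA1 was lower in HCT116-p53KO, by -1.05 and -1.36 on the same arrays. ELF3, an epithelial transcription factor gene, was lower by -1.25 and -0.99. Each line had 1 array per siRNA, so these values had no replicate check.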
